A study of Mus musculus with 46 samples.

Results

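The 6 genes described here lie in 2 short stretches of the mouse genome. *Cdk19*, *Gtf3c6* and *Rpf2* lie near each other on chromosome 10, with *Amd1* and the pseudogene *Gm8948* between *Gtf3c6* and *Cdk19*, and *1700001O22Rik*, *Ntmt1* and *Asb6* are neighbours on chromosome 2. The 2 places were chosen by responses to androgen already known from the same libraries, so the responses of the 6 genes to treatment, and the genotype differences and interactions built from the same values, are given as a description and support nothing. These are 6 of the 17859 genes listed in at least 1 of the 2 count tables, and each has a row in both tables. The tables list 17514 genes for the gastrocnemius and 16987 for the spinalis, and a filter of 0.5 CPM (counts per 10⁶ counts) in at least 2 libraries removed 0 of them. *1700001O22Rik* was below 0.5 CPM in most KO libraries.

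RNA was sequenced from muscles of C57BL/6J mice that carry the *Actn3* gene (WT) or lack it (*Actn3* KO). *Actn3* encodes α-actinin-3, a structural protein of fast muscle fibers, and the question was whether its loss alters the response of muscle to androgens. In the first experiment males were castrated by orchidectomy (ORX) or sham operated at 8 to 10 weeks of age, and the gastrocnemius was taken 12 weeks later, giving 6 sham and 6 ORX libraries of WT mice (WT-sham and WT-ORX) and 6 sham and 5 ORX libraries of KO mice (KO-sham and KO-ORX). In the second experiment females received an empty implant or 1 that held 10 mg of dihydrotestosterone (DHT) at 4 to 5 weeks of age for 6 weeks, and the spinalis was taken, giving 5 empty and 6 DHT libraries of WT mice (WT-empty and WT-DHT) and the same numbers of KO mice (KO-empty and KO-DHT). The labels list 6 KO-ORX samples, of which 5 have a column used here. Each library was treated as a separate mouse, and p-values measure the spread between these libraries. Sex, muscle and age differ together between the experiments, so their parts in any difference between the experiments cannot be told apart.

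Androgens are steroid hormones that help to maintain muscle mass, and they raise or lower the expression of many genes in muscle. Genes that lie next to each other can share enhancers or start from a common stretch of promoter, or they can be controlled separately although they touch. The proteins of these 6 genes have unrelated duties: *Cdk19* encodes a kinase of the Mediator complex and is the paralogue of *Cdk8*, *Gtf3c6* a subunit of TFIIIC, which recruits RNA polymerase III, and *Rpf2* a factor that helps to place the 5S ribonucleoprotein in the large ribosomal subunit. *Ntmt1* encodes an enzyme that methylates the N terminus of proteins, and *Asb6* an ankyrin repeat protein with a SOCS box that serves as an adaptor of Cullin 5 ubiquitin ligases.

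The genotype labels were checked first. *Actn3* lay between 5980 and 10400 CPM in the WT libraries and between 34.3 and 83.2 CPM in the KO libraries, so that every KO library was below every WT library. Markers of skeletal muscle fibers (*Ckm*, *Acta1*, *Mb*, *Tnnt3*, *Myh4*, *Myh1* and *Myh2*) summed to between 76500 and 159000 CPM, with *Myh4* the most abundant in each group. Total counts ranged from 26.7 to 55.4 M per library in the gastrocnemius and from 34.8 to 53.9 M in the spinalis. All KO-sham libraries (29.5 to 37.5 M) were smaller than all WT-sham libraries (43.4 to 50.3 M), and the part of depth in the KO-sham comparison was not tested.

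Markers of other cells were present in each group. The slow fiber markers (*Myh7*, *Tnnt1*, *Myl2* and *Tnni1*) summed to a median of 621 CPM in WT-empty (245 to 1310) and 253 in WT-DHT (107 to 567), and to 1140 in KO-empty (544 to 1430) and 208 in KO-DHT (143 to 705), with *Myh7* the most abundant. None of these 4 genes passed the test in any of the 10 contrasts by edgeR. The adipocyte markers (*Adipoq*, *Plin1*, *Cfd*, *Lep* and *Cidec*) had a median sum of 516 CPM in WT-empty (306 to 697) and 233 in WT-DHT (118 to 503), and of 556 in KO-empty (365 to 717) and 335 in KO-DHT (213 to 594), and of them *Cfd*, the most abundant, fell in WT (−1.20, SE 0.32, adjusted p = 0.009 by edgeR). The endothelial sum (*Pecam1*, *Cdh5*, *Kdr* and *Tek*) was higher with DHT in WT, at 196 against 151 CPM, and *Pecam1* rose by 0.33 (SE 0.072, adjusted p = 0.0019 by edgeR). With DHT in WT the fibroblast marker *Pdgfra* fell by 0.44 (SE 0.084, adjusted p = 0.00045 by edgeR) while *Dcn* rose by 0.54 (SE 0.11, adjusted p = 0.0012). With DHT in KO *Dcn* rose by 0.51 (SE 0.11, adjusted p = 0.0052 by edgeR), and with ORX in WT *Pdgfra* fell by 0.23 (SE 0.058, adjusted p = 0.0098). Of the 7 fiber markers *Mb* rose by 0.79 (SE 0.15, adjusted p = 0.0005 by edgeR) with DHT in WT. With ORX 2 of them fell in WT, *Myh1* by 0.61 (SE 0.14, adjusted p = 0.005 by edgeR) and *Mb* by 0.50 (SE 0.12, adjusted p = 0.0092). In KO 3 fell with ORX, *Myh1* by 0.61 (SE 0.15, adjusted p = 0.0074 by edgeR), *Mb* by 0.56 (SE 0.13, adjusted p = 0.0055) and *Tnnt3* by 0.20 (SE 0.049, adjusted p = 0.0087). In KO-ORX against WT-ORX 3 were lower, *Ckm* by 0.37 (SE 0.079, adjusted p = 0.0027 by edgeR), *Tnnt3* by 0.41 (SE 0.049, adjusted p = 3.6e-06) and *Acta1* by 0.50 (SE 0.059, adjusted p = 2.4e-06). In the other 3 genotype contrasts 1 each was lower in KO, *Acta1* in sham by 0.37 (SE 0.056, adjusted p = 5.8e-05 by edgeR), *Tnnt3* in empty by 0.37 (SE 0.084, adjusted p = 0.0062) and *Acta1* in DHT muscle by 0.51 (SE 0.095, adjusted p = 0.00033). Beside these counts, 6.63% of all genes rose with DHT in WT, and 3.41 and 3.58% fell with ORX in WT and KO. In KO against WT 2.82, 2.73, 2.5 and 6.51% of all genes were lower in sham, ORX, empty and DHT muscle. Among markers of leukocytes *Csf1r* fell with ORX in WT (−0.31, SE 0.07, adjusted p = 0.0041 by edgeR) and was lower in KO-sham than in WT-sham (−0.29, SE 0.071, adjusted p = 0.0075). The satellite cell markers *Pax7* and *Myf5* summed to between 2.34 and 6.82 CPM, and both were higher in KO-DHT than in WT-DHT (1.24, SE 0.25, adjusted p = 0.0007 by edgeR, and 0.89, SE 0.2, adjusted p = 0.0024), as was *Myf5* in KO-sham against WT-sham (0.75, SE 0.18, adjusted p = 0.0053 by edgeR). None of the markers of Schwann cells (18 to 76.1 CPM in sum) or red blood cells (66.8 to 704 CPM) passed by edgeR. The part of these shifts in the ORX, DHT and genotype results below was not tested, and fewer cells of a type and less RNA per cell cannot be told apart in whole muscle.

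In the GRCm38 annotation *Rpf2* (chr10:40223246-40247036) and *Gtf3c6* (chr10:40247703-40258108) run on the minus strand, 666 bases apart. *Cdk19* (chr10:40339564-40483818) runs on the plus strand and starts 81.5 kb from the start of *Gtf3c6*. *Amd1* (chr10:40287458-40302186), which encodes the decarboxylase that commits S-adenosylmethionine to polyamine synthesis, lies between them and starts 37.4 kb from the start of *Cdk19*, on the opposite strand. On chromosome 2, *1700001O22Rik* (chr2:30794769-30803661, minus strand) and *Ntmt1* (chr2:30807826-30823033, plus strand) point away from each other, with starts 4.17 kb apart. *Ntmt1* and *Asb6* (chr2:30823097-30830333, minus strand) meet tail to tail, with 63 bases between them. Exons of *Cdk19* share 268 bases with *Cdk19os* on the other strand, and the strand setting of the counting is not given in the sources used here, so the reads of that stretch cannot be assigned with certainty. *Cdk19os* was not analysed here.

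*Cdk19* was lower with ORX than with sham and with an empty implant than with DHT. In the gastrocnemius it lay between 78.3 and 98.4 CPM in WT-sham (median 83.7, n = 6) and between 25.5 and 30.3 in WT-ORX (median 26.9, n = 6). In KO-sham it lay between 72.9 and 94.4 CPM (median 77.9, n = 6), and the 5 KO-ORX libraries were at 24.9, 27.9, 28.8, 28.8 and 29.2. Every ORX library was thus below every sham library, while the genotypes overlapped within each treatment. On the log2 scale *Cdk19* differed with ORX by −1.63 (SE 0.068) in WT and −1.53 (SE 0.073) in KO.

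In the spinalis *Cdk19* was at 10.9, 12.1, 12.7, 13.4 and 14.6 CPM in the WT-empty libraries and between 86.8 and 104 in WT-DHT (median 91.2, n = 6). The KO-empty libraries were at 14.9, 15.4, 15.7, 17.0 and 18.6 CPM, and those of KO-DHT between 52.8 and 69.4 (median 58.9, n = 6). The 4 groups of this experiment did not overlap and stood in the order WT-empty, KO-empty, KO-DHT and WT-DHT. On the log2 scale its difference with DHT was 2.86 (SE 0.085) in WT and 1.86 (SE 0.082) in KO.

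*Gtf3c6* and *Rpf2*, the other 2 genes of the stretch on chromosome 10, stayed in a narrow band. *Gtf3c6* ranged from 19 to 25.7 CPM over the 23 gastrocnemius libraries and from 14.5 to 20.9 over the 22 spinalis libraries. *Rpf2* ranged from 12.3 to 16.5 CPM in the gastrocnemius and from 9.21 to 14.5 in the spinalis. For both genes the treated libraries overlapped the control libraries in each genotype and experiment. The log2 fold changes of *Gtf3c6* were 0.06 (SE 0.062) with ORX in WT, −0.13 (SE 0.066) with ORX in KO, 0.19 (SE 0.087) with DHT in WT and −0.04 (SE 0.087) with DHT in KO. Those of *Rpf2* were 0.14 (SE 0.059), −0.09 (SE 0.063), 0.00 (SE 0.093) and 0.06 (SE 0.093) in the same order. Per kilobase of exon, the mean level of *Cdk19* was 15.8 CPM per kb in WT-DHT against 6.67 for *Gtf3c6* and 6.29 for *Rpf2*, and in WT-empty it was 2.18 against 5.84 and 6.29, so the order of the 3 genes was reversed between these groups.

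*1700001O22Rik*, for which no role is named here, had the widest range of the 6 genes on the log2 scale. In the gastrocnemius it lay between 7.01 and 14 CPM in WT-sham (median 8.06, n = 6) and between 0.942 and 2.28 in WT-ORX (median 1.52, n = 6). In KO-sham it lay between 0.248 and 0.593 CPM (median 0.496, n = 6), and the 5 KO-ORX libraries were at 0.0393, 0.0904, 0.163, 0.215 and 0.229, which is between 2 and 11 counts. The 4 groups did not overlap, and the WT-ORX libraries were still above all KO-sham libraries. Its log2 fold change with ORX was −2.51 (SE 0.2) in WT and −1.72 (SE 0.39) in KO. Without WT-sham library 5, which stood above the rest at 14 CPM, the value in WT was −2.34.

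In the spinalis the 5 WT-empty libraries had 0.959, 1.1, 1.23, 1.24 and 1.28 CPM of *1700001O22Rik*, and the WT-DHT libraries lay between 40.6 and 60.3 (median 50.1, n = 6). The KO-empty libraries had 0.0428, 0.0648, 0.107, 0.14 and 0.2 CPM, or 2 to 10 counts, and those of KO-DHT lay between 0.207 and 1.17 (median 0.509, n = 6), or 11 to 51 counts. The KO-DHT libraries thus reached no higher than the WT-empty libraries, whose range they overlapped, and were all above those of KO-empty. Its log2 fold change with DHT was 5.43 (SE 0.23) in WT, or 43.2-fold, and 2.29 (SE 0.41) in KO, or 4.9-fold.

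*Ntmt1* followed *1700001O22Rik* in direction, with smaller differences. In the gastrocnemius it lay between 12.1 and 17.5 CPM in WT-sham (median 12.6, n = 6) and between 7.14 and 9.62 in WT-ORX (median 8.51, n = 6). In KO-sham it lay between 8.3 and 11.7 CPM (median 10.1, n = 6), and the KO-ORX libraries were at 7.83, 7.84, 8.02, 9.31 and 10.6. WT-sham stood above the other 3 groups, which overlapped each other. The log2 fold change with ORX was −0.67 (SE 0.1) in WT and −0.58 without WT-sham library 5. In KO it was −0.19 (SE 0.11), within the spread of the libraries.

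In the spinalis *Ntmt1* was at 9.99, 10.2, 10.7, 11.5 and 11.9 CPM in WT-empty and between 45.9 and 63.4 in WT-DHT (median 56.1, n = 6). The KO-empty libraries were at 6.51, 8.53, 9.37, 9.73 and 9.78 CPM, and those of KO-DHT between 13.1 and 16.7 (median 14.4, n = 6). The groups did not overlap and stood in the order KO-empty, WT-empty, KO-DHT and WT-DHT. The log2 fold change with DHT was 2.34 (SE 0.1) in WT, or 5.07-fold, and 0.73 (SE 0.098) in KO.

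*Asb6*, whose last base is 63 bases from that of *Ntmt1*, ranged from 5.84 to 8.83 CPM in the gastrocnemius and from 6.92 to 9.75 in the spinalis, and its groups overlapped in each comparison. Its log2 fold changes were 0.20 (SE 0.086) with ORX in WT, 0.18 (SE 0.092) with ORX in KO, −0.13 (SE 0.094) with DHT in WT and −0.10 (SE 0.094) with DHT in KO. With DHT in WT, the mean levels per kilobase of exon were 18.0 CPM per kb for *1700001O22Rik*, 19.7 for *Ntmt1* and 1.42 for *Asb6*. In WT-empty they were 0.417, 3.88 and 1.55, and in KO-DHT they were 0.205, 5.21 and 1.52. The divergent pair was therefore at a like level per length in WT-DHT muscle and far apart in KO-DHT muscle.

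**Figure D1:**
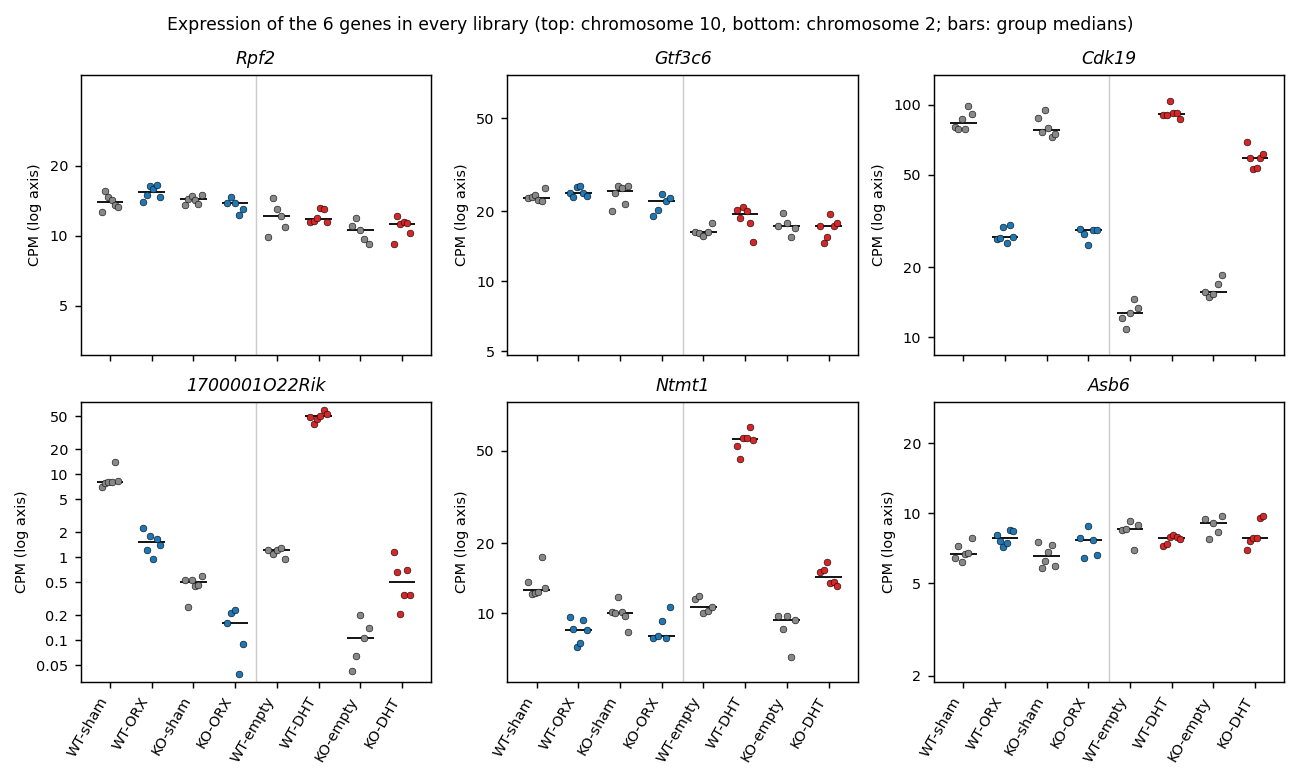
CPM on a log axis (vertical) of the 6 genes in each library of the 8 groups (horizontal), with 1 point per library and a bar at the group median; grey points are controls, blue points ORX and red points DHT. *Cdk19*, *1700001O22Rik* and *Ntmt1* are at 86.8 to 104, 40.6 to 60.3 and 45.9 to 63.4 CPM in WT-DHT, while *Gtf3c6*, *Rpf2* and *Asb6* keep to 1 band.

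Counts of the 6 genes are set beside those of all genes as a description. With ORX, 3 of 6 were at an adjusted p of at most 0.01 by edgeR in WT, all of them lower, where 5.45% of all genes were (2.04% higher and 3.41% lower). In KO 2 of 6 were, both lower, beside 5.57% of all genes (1.99% higher and 3.58% lower). With DHT 3 of 6 were in WT, all higher, beside 11.3% of all genes (6.63% higher and 4.64% lower), and 3 of 6 in KO, all higher, beside 4.62% (2.86% higher and 1.75% lower). The treated and control libraries were apart for 3, 2, 3 and 3 of the 6 genes in the same contrasts, beside 6.04, 5.34, 11.3 and 6.08% of all genes. Nothing is read from these counts, since the genes were chosen with these responses known. In each contrast the genes counted were *Cdk19* on chromosome 10 and *1700001O22Rik* on chromosome 2, with *Ntmt1* beside it except with ORX in KO. The count of 2 with ORX in KO became 1 without KO-ORX library 4 or 5 or KO-sham library 3 or 6. It also became 1 with limma-voom and with a fit of only the groups compared. The count of 3 with DHT in KO became 2 with limma-voom and with a fit of only the groups compared, which did not count *1700001O22Rik*.

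The differences between genotypes come from the values with which the genes were picked as responders, so for the 6 genes they are a description, without a test. *1700001O22Rik* was lower in KO than in WT in each of the 4 pairs of groups, with no overlap. The log2 fold change was −4.25 (SE 0.24) in sham, −3.45 (SE 0.33) in ORX, −3.34 (SE 0.37) in empty and −6.49 (SE 0.23) in DHT muscle. The last amounts to an 89.7-fold difference between KO-DHT and WT-DHT.

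*Ntmt1* was lower in KO-sham than in WT-sham (−0.43, SE 0.1), with all 6 KO-sham libraries below all 6 WT-sham libraries. With ORX the genotypes overlapped (0.05, SE 0.11). In empty muscle the KO libraries of *Ntmt1* were all below the WT libraries (−0.31, SE 0.1). In DHT muscle the log2 fold change was −1.92 (SE 0.092), with all 6 KO-DHT libraries below all 6 WT-DHT libraries.

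In the gastrocnemius the genotypes of *Cdk19* overlapped, with −0.08 (SE 0.066) in sham and 0.01 (SE 0.072) in ORX muscle. In the spinalis the direction depended on the treatment. Without DHT *Cdk19* was higher in KO (0.36, SE 0.083), and with DHT it was lower in KO (−0.64, SE 0.074), in both cases with no overlap.

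For *Gtf3c6*, *Rpf2* and *Asb6* the genotype differences farthest from 0 were those of *Rpf2*, at −0.21 (SE 0.097) between KO-empty and WT-empty and −0.19 (SE 0.062) between KO-ORX and WT-ORX. Counted at an adjusted p of at most 0.01 by edgeR, 2 of 6 genes were lower in KO in sham muscle (*1700001O22Rik* and *Ntmt1*), beside 5.3% of all genes (2.48% higher and 2.82% lower), and 1 of 6 in ORX muscle (*1700001O22Rik*), beside 3.8% (1.07% higher and 2.73% lower). In empty muscle 1 of 6 was higher (*Cdk19*) and 1 lower (*1700001O22Rik*), beside 4.25% (1.75% higher and 2.5% lower), and in DHT muscle *Cdk19*, *1700001O22Rik* and *Ntmt1* were lower, 3 of 6, beside 11.6% (5.13% higher and 6.51% lower). Nothing is read from these counts, since the libraries are those of the known responses and the difference of *1700001O22Rik* in sham muscle was itself known. The count of 2 in sham muscle became 1 without WT-sham library 1 or 5 or KO-sham library 1, 2, 4, 5 or 6, which drop *Ntmt1* (adjusted p by edgeR 0.01 to 0.022). The count of 2 in empty muscle became 1 without KO-empty 17KR, 61KR, 62KR or 64KR or WT-empty 4KR, 7KR or 14KR, which drop *Cdk19* (0.011 to 0.025 by edgeR). These are the codes of the count table. *Cdk19* was also dropped there with limma-voom and when only the 2 groups were fitted.

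The interaction, the response of KO minus that of WT, is made of the responses known when the genes were chosen and is given without a test. With DHT it was −1.0 (SE 0.11, 95% interval from −1.22 to −0.78) for *Cdk19*, −3.14 (SE 0.6, from −4.31 to −1.97) for *1700001O22Rik* and −1.61 (SE 0.14, from −1.88 to −1.34) for *Ntmt1*. For *Gtf3c6* it was −0.23 (SE 0.12, from −0.47 to 0.01), for *Rpf2* 0.07 (SE 0.13, from −0.19 to 0.32) and for *Asb6* 0.02 (SE 0.13, from −0.24 to 0.28). The first 3 genes were the ones at an adjusted p of at most 0.05 by edgeR, all lower, beside 3.24% of all genes (1.34% higher and 1.9% lower), and nothing is read from this count.

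With ORX 0 of 6 genes reached that threshold for the interaction by edgeR, beside 0.0228% of all genes (0.0171% higher and 0.00571% lower), and 0 of 6 by DESeq2 and limma-voom. At an unadjusted p under 0.05 there were 3 of 6 genes with each of these tools, beside 9.61% of all genes with edgeR (1683 genes), 9.74% with DESeq2 and 9.37% with limma-voom, and nothing is read from this count. The 3 by edgeR were *Ntmt1* (0.48, SE 0.15, 95% interval from 0.19 to 0.77), *Rpf2* (−0.22, SE 0.086, from −0.39 to −0.06) and *Gtf3c6* (−0.19, SE 0.09, from −0.37 to −0.02). For *Asb6* the interaction was −0.01 (from −0.26 to 0.23), for *Cdk19* 0.10 (from −0.10 to 0.29) and for *1700001O22Rik* 0.80 (from −0.15 to 1.74), a wide interval for a gene with 2 to 11 counts in KO-ORX libraries.

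Whether neighbours also vary together from mouse to mouse was examined on the deviations of log2 CPM from the group means, which treatment and genotype do not enter. The 12 relations were the 3 pairs of each stretch in each experiment, over 23 gastrocnemius and 22 spinalis libraries. None passed after adjustment over the 12. In the divergent pair *1700001O22Rik* and *Ntmt1*, Pearson's r was 0.28 in the gastrocnemius (permutation p = 0.25, adjusted p = 0.98; Spearman's rho 0.19, permutation p = 0.42) and 0.06 in the spinalis (permutation p = 0.81, adjusted p = 0.98; rho 0.18, permutation p = 0.46). Without the 2 libraries farthest from the median r was 0.23 and 0.24. This pair is poorly measured in KO, where libraries held as few as 2 counts of *1700001O22Rik* and its log2 SD within groups was 0.40 to 0.82, against 0.16 to 0.43 in WT. As a description without a test, chosen after the values were seen, r of the pair was 0.66 over the 12 WT and −0.04 over the 11 KO libraries of the gastrocnemius, and 0.52 over the 11 WT and −0.02 over the 11 KO libraries of the spinalis. The WT values were 0.40 without WT-sham library 5 and 0.19 without WT-DHT 5KR. Those of KO ran from −0.37 (without KO-ORX library 4) to 0.16 (without KO-ORX library 5) and from −0.16 (without KO-empty 64KR) to 0.26 (without KO-DHT 25KR). Within WT groups of 5 or 6 libraries r was 0.88 in sham muscle (−0.67 without WT-sham library 5). In ORX muscle it was 0.48 (0.16 without WT-ORX library 1 and 0.95 without WT-ORX library 3). In empty muscle it was −0.23 (−0.72 without WT-empty 49KR and −0.03 without 35KR), and in DHT muscle 0.89 (0.74 without WT-DHT 5KR). Lack of covariation in WT muscle is thus not shown. The smallest p belonged to *Rpf2* and *Cdk19* in the spinalis, with r = −0.52 (permutation p = 0.035, adjusted p = 0.42), rho = −0.44 (permutation p = 0.076, adjusted p = 0.91) and r = −0.59 without the 2 farthest libraries, and in the gastrocnemius the same pair had an r of 0.00 (permutation p = 1).

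The genes around the 2 stretches were taken by position and tested in each contrast, except that the fall of *Amd1* with ORX was known beforehand, so *Amd1* is described without a test. Within 500 kb on either side of the chromosome 10 stretch, 15 other genes were tested in the gastrocnemius and 14 in the spinalis. With ORX 2 of them fell in WT and 1 in KO, and with DHT 3 rose in WT and 3 in KO, with 0 in the opposite direction. Of all genes 3.41 and 3.58% fell with ORX in WT and KO, and 6.63 and 2.86% rose with DHT. Among the 3 with DHT was *Gm8948*, which reached 0.5 CPM only in DHT libraries, so that passing the filter required it to be high there. Without it 2 rose with DHT in each genotype, and without *Amd1* as well the counts were 1 and 0 of 14 with ORX and 1 and 1 of 12 with DHT, in WT and KO, all of them *Mfsd4b1*. Without these 2 genes, an exclusion chosen after the values were seen, the median log2 fold change of the neighbours was −0.05 with ORX in WT, −0.06 with ORX in KO, 0.06 with DHT in WT and 0.11 with DHT in KO, beside 0.013, 0.014, −0.006 and −0.011 for all genes. With these 2 genes kept, the medians of the neighbours were −0.06, −0.06, 0.2 and 0.19 in the same order. Over both chromosomes 4 neighbours passed with ORX in WT, which became 1 without WT-ORX library 6 and 2 without WT-sham library 2, 4 or 5, and the 3 that passed with ORX in KO became 5 without KO-ORX library 3.

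*Amd1* was lower with ORX and higher with DHT. Its level lay between 802 and 1080 CPM in WT-sham and between 173 and 237 in WT-ORX, and the 5 WT-empty libraries (69.1 to 93.2) were all below the 6 of WT-DHT (774 to 979). Its log2 fold change was −2.18 (SE 0.092) with ORX in WT, −2.31 (SE 0.099) with ORX in KO, 3.45 (SE 0.11) with DHT in WT and 2.80 (SE 0.11) with DHT in KO. Its interaction with DHT was −0.65 (SE 0.14). *Amd1* has close copies elsewhere in the genome, among them *Amd2*, and how reads were split between them is uncertain.

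*Mfsd4b1*, a member of the major facilitator superfamily of transporters, ends 198 kb before *Rpf2*. Its level lay between 5.18 and 7.55 CPM in WT-empty and between 15.0 and 17.8 in WT-DHT, and it rose by 1.48 (SE 0.1, adjusted p = 1.1e-10 by edgeR). In KO it rose from between 5.05 and 6.85 CPM to between 7.16 and 9.06 (0.50, SE 0.1, adjusted p = 0.0028 by edgeR). Its interaction with DHT was −0.98 (SE 0.14, adjusted p = 0.00014 by edgeR), and with ORX it fell in WT (−0.55, SE 0.12, adjusted p = 0.003). The call with ORX in WT ended without WT-ORX library 6 (adjusted p = 0.01 by edgeR) or WT-sham library 5 (0.012), and that with DHT in KO without KO-empty 33KR or 64KR (0.011 each). *Gtf3c6* and *Rpf2*, whose treated and control libraries overlapped, lie between *Mfsd4b1* and *Amd1*.

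*Gm8948*, a processed pseudogene that ends 5.24 kb before *Cdk19*, had 0 counts in the 5 WT-empty libraries and 16 to 40 in each of the 6 WT-DHT libraries. In KO it had 1 count over the 5 empty libraries and 98 over the 6 DHT libraries. These counts are a description without a fold, since the gene passed the filter only through its DHT libraries. Reads of a processed pseudogene can come from its parent gene, which was not tested.

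Around the chromosome 2 stretch 19 other genes were tested in both experiments. With ORX 1 rose and 1 fell in each genotype, with DHT in WT 1 rose and 1 fell, and with DHT in KO none passed by edgeR. Of all genes 5.45 and 5.57% passed with ORX in WT and KO, and 11.3 and 4.62% with DHT. *Crat*, which encodes carnitine acetyltransferase, fell with ORX in WT (−0.20, SE 0.05, adjusted p = 0.0072 by edgeR) and in KO (−0.31, SE 0.052, adjusted p = 0.00022). *Tor1b*, a torsin ATPase gene 123 kb beyond *Asb6*, rose with ORX in WT (0.18, SE 0.042, adjusted p = 0.0049 by edgeR) and fell with DHT in WT (−0.28, SE 0.067, adjusted p = 0.004). *Hmcn2*, a hemicentin gene, rose with ORX in KO (0.49, SE 0.087, adjusted p = 0.0005 by edgeR), and *Ncs1*, a neuronal calcium sensor gene, rose with DHT in WT (0.53, SE 0.12, adjusted p = 0.0025), a call lost with library-size scaling, as were those of *Crat* with ORX in both genotypes. Calls of *Crat* and *Tor1b* in WT ended on leaving out single libraries. For *Crat* with ORX these were WT-ORX 2, 3, 4 and 6 and WT-sham 1, 2, 4 and 6, with adjusted p by edgeR between 0.01 and 0.023. For *Tor1b* they were WT-ORX 5 and 6 and WT-sham 2, 3, 4 and 5 with ORX (0.01 to 0.017 by edgeR), and WT-DHT 34KR and 8KR and WT-empty 4KR and 7KR with DHT (0.01 to 0.016). The median of the 19 was 0.04, 0.07, 0.01 and 0.01 in the 4 treatment contrasts.

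Between genotypes, neighbours on chromosome 2 passed upwards by edgeR: 4 of 19 in sham muscle, 1 in empty and 4 in DHT muscle, and 0 in ORX muscle, beside 2.48, 1.75, 5.13 and 1.07% of all genes that passed upwards. Chosen after their values were seen, *Usp20*, which encodes a deubiquitinase, was higher in KO by 0.33 (SE 0.079, adjusted p = 0.0062 by edgeR) in sham, 0.67 (SE 0.13, adjusted p = 0.002) in empty and 0.69 (SE 0.12, adjusted p = 0.00015) in DHT muscle, and *Sh3glb2* by 0.37 (SE 0.092, adjusted p = 0.0078) in sham and 0.46 (SE 0.089, adjusted p = 0.00053) in DHT muscle. *Cstad* passed in sham muscle (1.11, SE 0.26, adjusted p = 0.005 by edgeR), *Crat* in DHT muscle (0.29, SE 0.064, adjusted p = 0.002) and *Tor1b* in both (0.21 and 0.28). On chromosome 10, without *Amd1* and *Gm8948*, 0 of 14 neighbours passed in sham and in ORX muscle. In empty muscle 1 of 12 was lower in KO, *Rev3l* (−0.54). In DHT muscle 2 of 12 were lower, *Mfsd4b1* (−1.02) and the antisense gene *E130307A14Rik* (−0.54). Of all genes 2.82, 2.73, 2.5 and 6.51% were lower in KO in sham, ORX, empty and DHT muscle. *Amd1* was lower in KO in sham, ORX and DHT muscle (−0.48, −0.61 and −0.93), as a description. The genotype calls of neighbours other than *Amd1* were not examined without single libraries or under the alternatives.

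**Figure D2:**
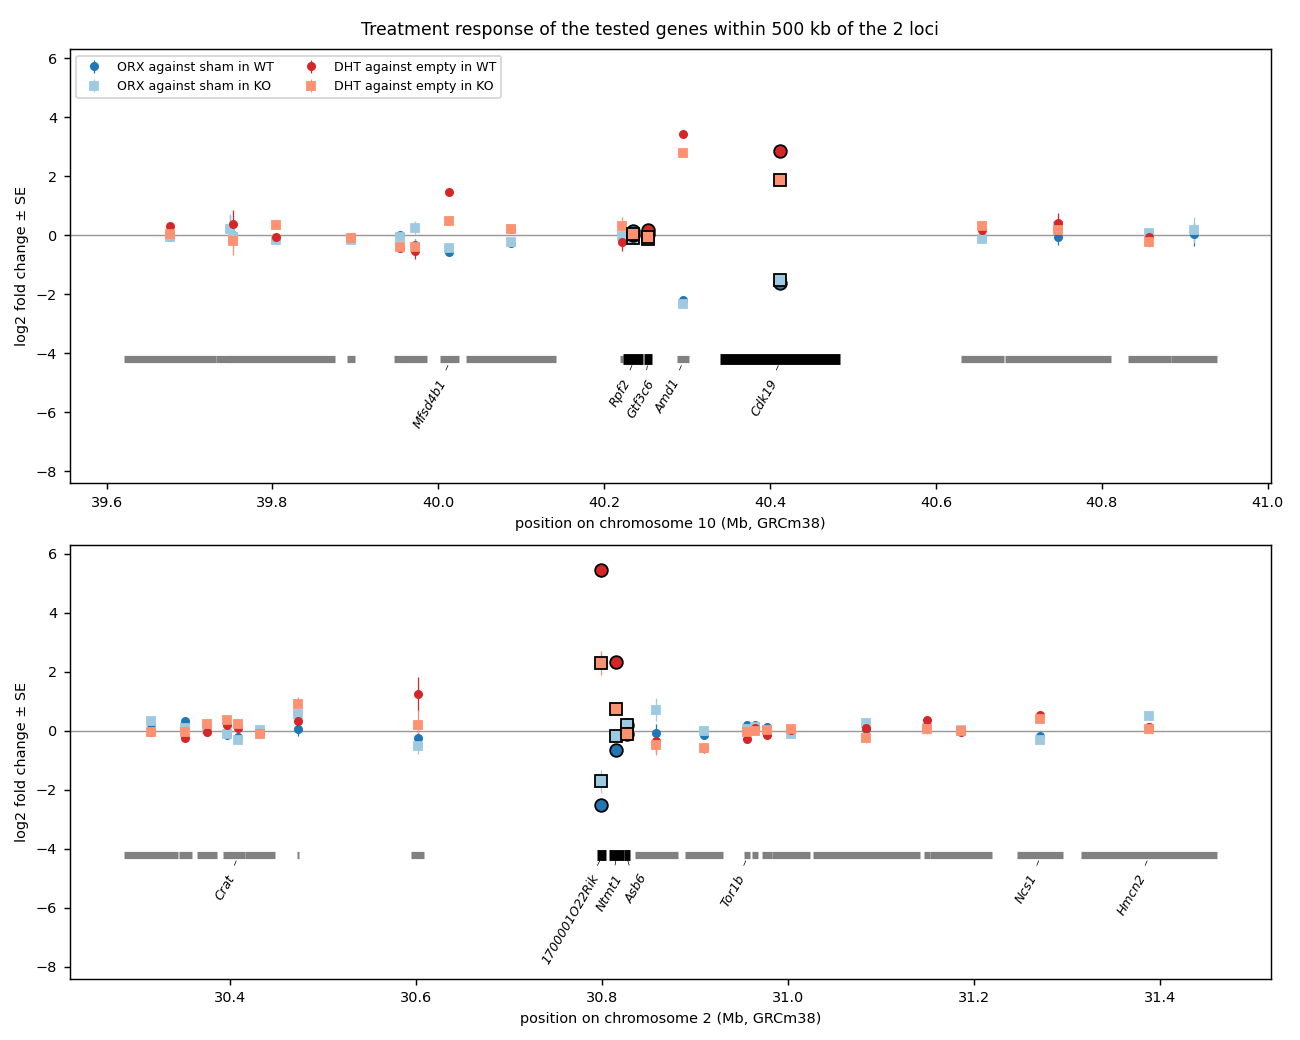
Log2 fold change with treatment (vertical, ± SE) of the tested genes within 500 kb of the chromosome 10 stretch (top) and the chromosome 2 stretch (bottom), at the middle of each gene (horizontal, Mb in GRCm38); outlined symbols are the 6 genes and bars mark gene bodies, and *Gm8948* is left out because it had 0 counts in a group. *Amd1* reaches 3.45 and *Cdk19* 2.86 with DHT in WT, with *Gtf3c6* at 0.19 and *Rpf2* at 0.00 beside them, and *1700001O22Rik* reaches 5.43 and *Ntmt1* 2.34, with *Asb6* at −0.13.

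Over all libraries, likeness of expression was measured by Pearson's r of log2 CPM in each experiment, and the smaller of the 2 values ranked 16641 genes. These correlations are a description, since the libraries share the treatments. The 5 genes most like *Cdk19* were *Serpinb6a*, a protease inhibitor (0.985 in the gastrocnemius and 0.977 in the spinalis), *Amd2* (0.98 and 0.975), *Amd1* (0.971 and 0.983), *Slc30a2*, a zinc transporter (0.96 and 0.975), and *Amd-ps3* (0.952 and 0.978), and the *Amd* copies may share reads. *Gtf3c6* ranked 3716 and *Rpf2* 7763 in this order. Of the chromosome 2 stretch, *Ntmt1* ranked 212 (0.735 and 0.821), *1700001O22Rik* 958 and *Asb6* 14893 by likeness to *Cdk19*. The 5 genes most like *1700001O22Rik* were *Neto2*, an auxiliary subunit of kainate receptors (0.973 and 0.972), *Shc2*, an adaptor protein (0.936 and 0.965), *Stt3b*, a catalytic subunit of oligosaccharyltransferase (0.931 and 0.977), *Musk*, the receptor kinase of the neuromuscular junction (0.93 and 0.928), and *Fsd2* (0.92 and 0.948). *Ntmt1* ranked 450 (0.655 and 0.94) and *Asb6* 13396. None of the 5 genes most like *1700001O22Rik* lies on chromosome 2. *Amd1* and *Amd2* are on chromosome 10, as *Cdk19* is, but *Amd2* is not among the genes within 500 kb of the stretch.

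The partners of the 6 genes in their complexes and families were examined as lists. Of the 6 other genes of the Mediator kinase module, 0 passed with ORX and 1 with DHT in each genotype. Of all genes 5.45 and 5.57% passed with ORX in WT and KO, and 11.3 and 4.62% with DHT. The 1 gene was *Med13l*, a scaffold of the module, which fell with DHT in WT (−0.24, SE 0.064, adjusted p = 0.0075 by edgeR) and in KO (−0.26, SE 0.064, adjusted p = 0.0097). The call in WT ended without WT-DHT 15KR, 39KR, 5KR or 8KR or WT-empty 14KR, 35KR, 49KR or 7KR (adjusted p by edgeR 0.011 to 0.028). That in KO ended without any 1 of 16 libraries, namely those of KO-DHT except 63KR, those of KO-empty except 62KR, WT-DHT 15KR, 34KR, 5KR and 8KR, and WT-empty 14KR, 35KR and 7KR (0.011 to 0.03 by edgeR). *Cdk8* itself was at −0.20 with ORX in WT and 0.24 with DHT in WT, with adjusted p of 0.034 and 0.016 by edgeR, short of the threshold. In KO-DHT against WT-DHT 2 of the 6 were lower, *Cdk8* (−0.39, SE 0.065, adjusted p = 0.00012 by edgeR) and *Med13* (−0.33, SE 0.066, adjusted p = 0.00068), beside 11.6% of all genes (6.51% lower), and 0 passed in the other genotype contrasts. The median of this list was 0.00, 0.07, −0.10 and −0.17 in the 4 treatment contrasts.

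Of the 5 other TFIIIC subunits and the 12 RNA polymerase III genes, 0 passed with either treatment in either genotype by edgeR, with list medians between −0.03 and 0.03. The list of 5S ribonucleoprotein and large subunit assembly has 16 other genes. Among them is *Nog*, in the mouse the symbol of noggin, which is not an assembly factor. Of the 16 genes, 0 passed with ORX or with DHT in KO. With DHT in WT 1 rose and 3 fell. These counts and those of the TFIIIC and RNA polymerase III genes stand beside 5.45 and 5.57% of all genes with ORX in WT and KO. With DHT 4.62% of all genes passed in KO, and 11.3% in WT (6.63% higher and 4.64% lower). *Rrs1*, the partner of *Rpf2*, fell by 0.66 (SE 0.15, adjusted p = 0.0022 by edgeR), *Rpl11*, a ribosomal protein bound by the pair, by 0.32 (SE 0.082, adjusted p = 0.0067) and *Ftsj3* by 0.27 (SE 0.067, adjusted p = 0.005), while *Nifk* rose by 0.33 (SE 0.084, adjusted p = 0.0068). The DHT and empty libraries of *Rpf2* overlapped in WT, and its difference from *Rrs1* was not tested. Each of these calls ended without some single libraries, with adjusted p by edgeR between 0.01 and 0.029: WT-empty 14KR for *Rrs1*; WT-DHT 39KR and 50KR and WT-empty 14KR, 49KR, 4KR and 7KR for *Rpl11*; WT-DHT 34KR and 5KR and WT-empty 14KR, 4KR and 7KR for *Ftsj3*. For *Nifk* they were WT-DHT 34KR, 39KR, 50KR, 5KR and 8KR and WT-empty 14KR, 35KR, 49KR and 7KR. The 9 calls of all lists together with DHT in WT became 4 without WT-empty 14KR and 5 without WT-empty 7KR. Between genotypes 0 of the TFIIIC genes passed by edgeR. Of the RNA polymerase III genes 1 was higher in KO-DHT than in WT-DHT, *Polr3gl* (0.22, SE 0.056, adjusted p = 0.0064 by edgeR), and 0 without WT-DHT 15KR, 34KR or 5KR or KO-DHT 25KR, 40KR, 63KR or 6KR. Of the 5S list 1 was lower in KO in ORX muscle, *Gnl3* (−0.29, SE 0.062, adjusted p = 0.0035 by edgeR), and 0 without KO-ORX 3 or 4 or WT-ORX 3 or 4. In DHT muscle 1 was lower, *Nifk* (−0.34, SE 0.08, adjusted p = 0.0034 by edgeR), and 0 without WT-DHT 39KR or 8KR or KO-DHT 63KR. In sham muscle 0 passed, and 1 did without KO-ORX 4, WT-ORX 3 or WT-sham 6. These counts of 0 or 1 in 12 and 16 genes stand beside 5.3, 3.8, 4.25 and 11.6% of all genes in sham, ORX, empty and DHT muscle. For N-terminal methylation 2 other genes were tested, and 0 passed in any of the 10 contrasts by edgeR.

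Of the ASB family and the Cullin 5 ligase, with 19 genes other than *Asb6*, 4 passed with ORX in WT, 3 with ORX in KO, 4 with DHT in WT and 2 with DHT in KO by edgeR, beside 5.45, 5.57, 11.3 and 4.62% of all genes. With ORX in WT *Asb11* (0.39, SE 0.058) and *Asb16* (0.47, SE 0.076) rose and *Asb5* (−0.29, SE 0.063) and *Asb10* (−0.29, SE 0.066) fell, with adjusted p by edgeR between 3.3e-05 and 0.0043. With ORX in KO *Asb11* rose (0.45, SE 0.061, adjusted p = 1.4e-05 by edgeR) and *Asb10* (−0.30, SE 0.07, adjusted p = 0.0046) and *Asb4* (−0.34, SE 0.085, adjusted p = 0.0091) fell. With DHT in WT *Asb10* (1.08, SE 0.14, adjusted p = 2e-06 by edgeR), *Asb5* (0.86, SE 0.086, adjusted p = 4.4e-08) and *Asb14* (0.41, SE 0.09, adjusted p = 0.0016) rose and *Asb16* fell (−0.51, SE 0.093, adjusted p = 0.00025). With DHT in KO *Asb5* (0.60, SE 0.085, adjusted p = 4.1e-05 by edgeR) and *Asb14* (0.45, SE 0.09, adjusted p = 0.0022) rose. With ORX in WT the call of *Asb10* ended without WT-ORX 2, 3 or 4 or WT-sham 1 or 6 (adjusted p by edgeR 0.012 to 0.016). With ORX in KO it ended without KO-ORX 1, 2 or 4 or KO-sham 1, 2 or 6 (0.01 to 0.019 by edgeR), and that of *Asb4* without KO-ORX 1, 2, 4 or 5, any KO-sham library but 2, WT-ORX 2, 4 or 6 or WT-sham 1, 3 or 4 (0.01 to 0.04). The 3 calls of this list with ORX in KO, the only ones of any list there, became 1 without KO-ORX 1, 2 or 4 or KO-sham 1 or 6, and 5 without KO-sham 5, and the 3 calls of all lists with DHT in KO became 5 without KO-empty 62KR. The interaction with DHT passed for 1 of the 19, *Asb16* (0.49, SE 0.13, adjusted p = 0.037 by edgeR), beside 3.24% of all genes (1.34% higher). *Asb5*, *Asb10* and *Asb16* thus moved in opposite directions with ORX and DHT in WT, and the median of the list lay between −0.07 and 0.03. The call of *Asb5* with ORX in WT was lost with library-size scaling. Between genotypes 4 of the 19 passed by edgeR in sham (2 higher and 2 lower in KO), 3 in ORX (all lower), 3 in empty (1 higher and 2 lower) and 6 in DHT muscle (2 higher and 4 lower), beside 5.3, 3.8, 4.25 and 11.6% of all genes. The count in sham became 2 without WT-sham 2 or 5, that in empty 1 without WT-empty 4KR or 7KR, and that in DHT muscle 3 without KO-DHT 63KR or 65KR.

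Promoter windows of 300 bases, from 250 before to 50 after each start, were taken from RefSeq on GRCm38.p6, where 5 of the 6 genes have 9 windows and *Cdk19* has none. The counts were made on GRCm39, from which no coordinate was taken. The inverted repeat of AGAACA followed after 3 bases by TGTTCT was found on either strand in 0 of the 9 windows and in 0.00913% of the 32851 windows of all genes. Its first arm AGAACA alone, found in 19% of all windows, stood in the first window of *1700001O22Rik*, with its first base at position −12 from the start, and in both windows of *Rpf2*. GGGCGG, the core of a GC box, was in 35.7% of all windows and TATAAA in 13.6%. The divergent pair and *Asb6* are shown because the pair was higher with DHT while *Asb6* was not. Their windows are chr2:30803615-30803914 (minus strand), chr2:30807718-30808017 (plus strand) and chr2:30828251-30828550 (minus strand). The window of *Asb6* lies within the gene as placed above (chr2:30823097-30830333, minus strand), away from its first base there. Each window is written in its gene's direction, with any of these motifs, on either strand, in capitals.
1700001O22Rik: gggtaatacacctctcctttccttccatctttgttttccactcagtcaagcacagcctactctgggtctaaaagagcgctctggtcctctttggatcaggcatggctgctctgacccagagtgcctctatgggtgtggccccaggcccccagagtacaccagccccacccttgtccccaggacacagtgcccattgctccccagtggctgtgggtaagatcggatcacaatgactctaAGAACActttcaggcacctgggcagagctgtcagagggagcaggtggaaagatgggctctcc
Ntmt1: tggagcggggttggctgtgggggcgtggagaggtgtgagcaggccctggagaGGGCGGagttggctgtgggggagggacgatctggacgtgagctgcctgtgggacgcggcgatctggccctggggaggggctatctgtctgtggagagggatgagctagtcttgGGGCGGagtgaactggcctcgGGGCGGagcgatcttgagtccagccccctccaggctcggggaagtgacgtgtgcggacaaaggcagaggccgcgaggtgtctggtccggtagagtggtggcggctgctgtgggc
Asb6: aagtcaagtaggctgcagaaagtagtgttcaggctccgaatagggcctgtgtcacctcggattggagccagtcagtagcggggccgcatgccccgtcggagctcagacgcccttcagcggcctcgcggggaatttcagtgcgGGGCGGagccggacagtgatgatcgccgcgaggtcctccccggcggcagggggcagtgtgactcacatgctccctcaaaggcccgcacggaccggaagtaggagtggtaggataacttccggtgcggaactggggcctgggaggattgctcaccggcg
The first window of *1700001O22Rik*, shown here, held 2 CG pairs, a ratio of observed to expected CG of 0.085, and no GGGCGG. Its second (chr2:30801688-30801987, minus strand) held 15 CG pairs, a ratio of 0.59, and 2 copies of GGGCGG. The windows of *Ntmt1* and *Asb6* shown held 19 and 25 CG pairs (ratios 0.66 and 0.82) and 3 and 1 copies of GGGCGG, and the second of *Ntmt1* held 21 CG pairs (ratio 0.64) and 0 copies. A match of letters is a description and does not show that a protein binds there, nor does the lack of 1 show the reverse.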

How the data were processed

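Libraries numbered 23 from gastrocnemius and 22 from spinalis. Per the submitters' notes, reads were aligned with STAR 2.7.1b to GRCm39, handled with SAMtools 1.9 and Picard 2.20.2, and counted per gene by featureCounts of Subread 2.0.0, with no strand setting given. The values used are those raw counts. Columns were matched to samples by group and number (ORX) or to groups only (DHT). The 6 genes and the lists were chosen with earlier results of these data known. Coordinates came from GENCODE M21 on GRCm38 through Ensembl identifiers, which matched 17435 and 16922 genes, and none was converted between builds.

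Each experiment was fitted in edgeR 4.0.16 (R 4.3.3) with TMM scaling, a mean per group and quasi-likelihood F tests. P-values were adjusted by Benjamini and Hochberg's method over every gene of a contrast, and the threshold was 0.01, or 0.05 for interactions. CPM used TMM-scaled library sizes, and log2 CPM a prior count of 2. Covariation was tested two-sided with 100000 permutations within groups. Code was tested on simulated data. Alternatives were library-size scaling, DESeq2 1.42.0, limma-voom (limma 3.58.1), other filters, thresholds and windows, a fit of only the groups compared, a replicate block and leaving out each library. Genes named by rule were the 6, neighbours within 500 kb that passed with treatment, up to 4 genes per list with the smallest p, the 5 most alike in pattern, *Actn3*, *Amd1* and genes overlapping a member. Python 3.11.15 and matplotlib 3.10.9 made the plots.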

Additional observations from a re-analysis of the deposited data

Results flagged for a closer look

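In 5 of 48 groups (6 genes in 8 groups) the highest or lowest library stood far from the rest for the spread of its group, where chance alone sets apart about 1 group in 20. *1700001O22Rik* was at 14 CPM in WT-sham library 5 against 7.01 to 8.39 in the other 5, and *Ntmt1* in the same library was at 17.5 CPM against 12.1 to 13.6. *1700001O22Rik* in KO-sham library 2 was at 0.248 CPM, or 9 counts, against 0.456 to 0.593. *Cdk19* was at 24.9 CPM in KO-ORX library 3 against 27.9 to 29.2, and at 104 CPM in WT-DHT library 8KR against 86.8 to 91.9. Without library 5, the differences between WT-ORX and WT-sham were −2.34 for *1700001O22Rik* and −0.58 for *Ntmt1*.

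As a description, the interaction with DHT, the response of KO minus that of WT, stood apart from 0 for 3 of the 6 genes, with −1.0 for *Cdk19*, −3.14 for *1700001O22Rik* and −1.61 for *Ntmt1* on the log2 scale.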

How the results depend on the processing

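The interaction with DHT was at an adjusted p of at most 0.05 for the same 3 of 6 genes without each single library and under each alternative except 10 counts in every library. That filter drops *1700001O22Rik* by construction and left 2 of 6 there, 2 with ORX in WT, with DHT in WT, with DHT in KO and in KO-DHT against WT-DHT, 1 of 6 genes with ORX in KO, 1 in KO-sham against WT-sham, 0 in KO-ORX against WT-ORX and 1 in KO-empty against WT-empty. With DHT in KO 2 of 6 passed with limma-voom and with a fit of only the groups compared. With ORX in KO 1 of 6 passed with limma-voom and with a fit of only the groups compared, as in KO-empty against WT-empty (1 and 1), and library-size scaling left 1 in sham muscle. A threshold of 0.05 gave 1735 genes with ORX in WT, 1925 in KO, 1838 between genotypes in sham and 1260 in ORX muscle, 3078 with DHT in WT, 1840 in KO, and 1557 and 3170 between genotypes in empty and DHT muscle. A threshold of 0.01 for the interaction gave 1 gene with ORX and 273 with DHT. Fits of only the groups compared, which hold fewer samples, gave 484 genes with ORX in KO, 498 with DHT in KO and 289 in empty muscle. DESeq2 gave 1201 genes with DHT in KO and 125 for the interaction with ORX, where limma-voom gave 10. Neighbours that passed were 2 with ORX in WT and 1 with DHT in KO in fits of only the groups compared, 5 with ORX in KO and 10 with DHT in KO at 0.05, and 7 with DHT in KO by DESeq2. Windows of 250 and 1000 kb gave 1 and 6 with ORX in KO, and 1000 kb gave 9 with DHT in WT. Without *Amd1* and *Gm8948*, an alternative chosen after the values were seen, 3 neighbours passed with DHT in WT and 1 in KO, where 5 and 3 passed with them. Genes of the function lists were 2 with library-size scaling and 7 at 0.05 with ORX in WT, and 5 by DESeq2 and 7 at 0.05 both with ORX in KO and with DHT in KO. Library-size scaling moved the median of all genes with ORX in KO to 0.121, *Rpf2* there to 0.018 and the ORX interaction of *Asb6* to 0.053. Calls of single genes lost with it were those of *Crat* and *Asb10* with ORX in both genotypes, *Asb5* with ORX in WT, *Asb4* with ORX in KO, *Ntmt1* in sham muscle, *Nifk* and *Ncs1* with DHT in WT and *Med13l* with DHT in KO. Fits of only the groups compared lost those of *Tor1b* with ORX and DHT in WT, *Asb10* with ORX in WT, *Asb4* with ORX in KO, *Mfsd4b1* with ORX in WT and DHT in KO, *Med13l* with DHT in both genotypes, *Ftsj3*, *Nifk* and *Rpl11* with DHT in WT and *Cdk19* in empty muscle, limma-voom those of *Asb4*, *Med13l* in KO and *Cdk19* in empty muscle, and the replicate block that of *Asb4*.

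Covariation changed sign for pairs near 0. Without the 2 farthest libraries r was 0.05 for *Rpf2* and *Cdk19* and 0.17 for *Gtf3c6* and *Cdk19* in the gastrocnemius, and −0.05 for *Gtf3c6* and *Cdk19*, 0.05 for *1700001O22Rik* and *Asb6* and −0.09 for *Ntmt1* and *Asb6* in the spinalis. With library-size scaling it was 0.30 and 0.23 for the first 2 pairs, and −0.13 for *1700001O22Rik* and *Ntmt1* and −0.02 for *Ntmt1* and *Asb6* in the spinalis. Within 1 genotype, an alternative chosen after the values were seen, r of *1700001O22Rik* and *Ntmt1* was 0.66 in WT and −0.04 in KO in the gastrocnemius, and 0.52 and −0.02 in the spinalis. Leaving out 1 library at a time gave r from −0.08 to 0.13 (*Rpf2* and *Cdk19*) and −0.25 to 0.08 (*Gtf3c6* and *Cdk19*) in the gastrocnemius. In the spinalis it gave −0.09 to 0.16 (*Rpf2* and *Gtf3c6*), −0.05 to 0.20 (*Gtf3c6* and *Cdk19*), −0.04 to 0.29 (*1700001O22Rik* and *Ntmt1*), −0.23 to 0.16 (*1700001O22Rik* and *Asb6*) and −0.01 to 0.22 (*Ntmt1* and *Asb6*).

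Without each library in turn, the genes that passed ranged from 589 to 1116 with ORX in KO, from 2 to 38 for the interaction with ORX (38 without KO-ORX library 3) and from 450 to 700 in KO-empty against WT-empty. Members ranged from 1 to 2 with ORX in KO, in sham and in empty muscle, neighbours from 1 to 5 with ORX in WT and 3 to 5 in KO, and list genes from 1 to 5 with ORX in KO, 4 to 10 with DHT in WT and 2 to 5 in KO. Log2 fold changes that crossed 0 were those of KO-ORX against WT-ORX for *Ntmt1* (−0.033 to 0.092) and *Cdk19* (−0.009 to 0.053), *Gtf3c6* with DHT in KO (−0.08 to 0.007), *Rpf2* with DHT in WT (−0.068 to 0.07), the ORX interaction of *Asb6* (−0.083 to 0.033) and the DHT interactions of *Rpf2* (−0.011 to 0.127) and *Asb6* (−0.032 to 0.085). No source used here states that replicate numbers pair the ORX libraries. Of 33 pairs of libraries with the same number 6 had r over 0.1 (median 0.00697). Of 165 pairs with different numbers 20 did (median −0.00881), and 7 of 23 libraries were closest to 1 with their number. Whether the numbers pair the libraries cannot be told from these values. With a block for these numbers as many of the 6 genes, of the neighbours and of the list genes passed as without it. No paired analysis was possible for the spinalis because its columns carry no replicate numbers.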
